A study of Mus musculus with 18 samples.

Results

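To describe microglia in the retina of diabetic and healthy mice, 9 genes expressed by these cells were followed through retinal poly(A) RNA sequencing: Cx3cr1, P2ry12, Csf1r, Itgam, Trem2, Tyrobp, Aif1, Cd68 and Ctss. They were chosen by symbol, as markers of microglia in common use, and each matched 1 of the 35006 gene names in the count tables. The libraries came from retinas of male mice and fell into 4 groups. WT mice (3 libraries) were C57BL/6J animals, and Akita mice (4 libraries, C57BL/6-Ins2Akita/J) carry the Akita mutation in 1 copy of the insulin gene Ins2, become diabetic at a young age and are used as a model of diabetic retinopathy. WT + NACET (6 libraries) and Akita + NACET (5 libraries) mice received N-acetylcysteine ethyl ester (NACET), a cell-permeable derivative of the antioxidant N-acetylcysteine, dissolved at 0.33 mg/mL in what they drank (50 mg/kg a day) between 4 and 24 weeks of age, while the WT and Akita groups drank plain water to the same age. The mutation is carried in the germline, so that the Akita groups model diabetes of the whole body and not a change made in microglia. The sources used here do not say whether a library holds the retina of 1 animal, so that p-values measure the spread between libraries.

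Microglia are the resident macrophages of the retina. They lie mainly in the plexiform layers, survey synapses with motile processes, and clear debris. Their survival depends on signalling through CSF1R, their contact with neurons runs in part through the fractalkine receptor CX3CR1 and the purine receptor P2RY12, and TREM2 with its adaptor TYROBP senses lipids and dying cells. In diabetic retinopathy microglia are known to retract their processes, to gather around vessels and to release inflammatory mediators.

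The DNA in front of 4 of these genes is shown as a description, where Ctss, Trem2 and Cx3cr1 stand for the called genes and P2ry12 for those that were not. Any part of these sequences in the levels of the genes was not tested. The windows hold the 250 bases before the start of each gene, 5′ to 3′ on the strand of the gene, from RefSeq in the build GRCm38.p6, and 7 of the 9 genes were matched in the promoter table used here. Capitals mark GAGGAA or its reverse complement TTCCTC, the core bound by the myeloid factor PU.1, and GAAANNGAAA or its reverse complement TTTCNNTTTC, a repeat of the kind bound by interferon regulatory factors. The windows were chr3:95526536-95526785 on the plus strand for Ctss, chr17:48346151-48346400 on the plus strand for Trem2, chr9:120068297-120068546 on the minus strand for Cx3cr1 and chr3:59262986-59263235 on the minus strand for P2ry12.
Ctss: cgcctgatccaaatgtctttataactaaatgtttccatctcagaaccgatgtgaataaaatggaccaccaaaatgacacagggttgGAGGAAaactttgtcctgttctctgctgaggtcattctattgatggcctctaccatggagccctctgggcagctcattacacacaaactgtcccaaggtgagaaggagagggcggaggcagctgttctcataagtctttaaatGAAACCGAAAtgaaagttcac
Trem2: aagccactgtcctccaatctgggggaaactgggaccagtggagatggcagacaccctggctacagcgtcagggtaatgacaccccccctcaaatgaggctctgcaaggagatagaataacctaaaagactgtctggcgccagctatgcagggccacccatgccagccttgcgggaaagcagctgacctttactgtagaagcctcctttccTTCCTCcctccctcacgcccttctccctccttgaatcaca
Cx3cr1: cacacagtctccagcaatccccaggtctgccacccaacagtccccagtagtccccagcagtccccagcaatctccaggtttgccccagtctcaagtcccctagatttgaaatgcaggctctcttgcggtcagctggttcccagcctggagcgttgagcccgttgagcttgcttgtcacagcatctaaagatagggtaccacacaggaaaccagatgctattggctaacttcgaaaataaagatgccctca
P2ry12: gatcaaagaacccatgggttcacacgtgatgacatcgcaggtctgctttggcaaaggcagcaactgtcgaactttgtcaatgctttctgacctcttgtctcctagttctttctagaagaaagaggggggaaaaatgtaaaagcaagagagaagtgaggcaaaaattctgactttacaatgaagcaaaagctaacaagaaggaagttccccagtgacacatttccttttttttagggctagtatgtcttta
In Ctss the PU.1 core began 164 bases and the repeat 21 bases before the gene start, and in Trem2 the PU.1 core began 40 bases before it. Neither sequence was found in the windows of Cx3cr1 and P2ry12. Of the 7 matched genes, 5 held the PU.1 core (Itgam, Trem2, Aif1, Cd68 and Ctss) against 23.3% of 32851 mouse promoter windows of the same length, and 2 held the repeat (Aif1 and Ctss) against 2.98%. These are matches of letters on either strand and no measurement of binding.

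Between 11590384 and 18073791 reads were assigned to genes in each of the 18 libraries, and the microglia genes took 3 to 588 of them. All 9 genes passed the filter on low counts and were among the 16183 genes tested. Levels are given as CPM, reads per 1000000 of the TMM-scaled library size, and fold changes as log2 with SE from the quasi-likelihood test of edgeR, with p-values adjusted over all tested genes by the method of Benjamini and Hochberg and a threshold of 0.05. The part of the unique alignments lying outside exons, called the outside-exon share here, moved with the groups. Its source was not tested. The share was 14.9% to 17.1% in WT, 9.55% to 16.5% in WT + NACET, 9.67% to 13.3% in Akita and 14.3% to 19.8% in Akita + NACET, and its mean was 16.4% in Akita + NACET against 12.7% in WT + NACET (two-sided exact permutation p = 0.0476). Results adjusted for this share are therefore given beside the comparisons.

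The fractalkine receptor gene Cx3cr1 (mm9, chromosome 9, 119957811 to 119977400, minus strand, protein coding) marks microglia in the healthy retina and receives the neuronal ligand CX3CL1. Its level was 9.19, 7.83 and 5.24 CPM in the WT libraries and 7.15 to 10.5 CPM, with a median of 8.26, in WT + NACET. In Akita it was 8.91, 8.28, 5.02 and 4.97 CPM, and in Akita + NACET 6.06, 5.30, 7.34, 4.72 and 3.66 CPM. Only 1 Akita + NACET library (replicate 3) reached the range of WT + NACET, and the other 4 lay below it. Cx3cr1 was lower in Akita + NACET than in WT + NACET by a log2 fold change of -0.67 ± 0.20 (SE, edgeR adjusted p = 0.0313), while its change was -0.12 ± 0.25 in Akita vs WT (adjusted p = 0.794) and 0.22 ± 0.23 in WT + NACET vs WT (adjusted p = 0.619).

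P2ry12 encodes the ADP receptor that steers microglial processes and is held to fall when microglia leave the resting state. It lies on chromosome 3 (mm9, 59020193 to 59066753, minus strand) within the span of Med12l on the opposite strand, with no exon in common, and Med12l had 37 to 98 reads per library. P2ry12 stood at 8.47, 6.71 and 6.44 CPM in WT and at 4.24 to 8.11 CPM, with a median of 5.85, in WT + NACET. The Akita libraries had 5.33, 5.15, 5.53 and 3.65 CPM and the Akita + NACET libraries 4.96, 4.24, 5.04, 4.66 and 5.29 CPM. Every Akita library lay below every WT library, as for 12% of all tested genes, and so did every Akita + NACET library, as for 2.17% of all tested genes. The log2 fold changes were -0.55 ± 0.20 in Akita vs WT (edgeR adjusted p = 0.0896) and -0.57 ± 0.19 in Akita + NACET vs WT (adjusted p = 0.9996), so that neither passed the threshold. In Akita + NACET vs WT + NACET the change was -0.29 ± 0.16 (adjusted p = 0.222), the smallest among the 9 genes in that comparison.

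Csf1r encodes the receptor for the growth factors CSF1 and IL-34, on which microglia depend for survival. The gene spans 61265226 to 61291803 on chromosome 18 (mm9, plus strand), and its exons overlap those of Hmgxb3 on the other strand. Reads were counted without strand and ambiguous reads were dropped, so part of Csf1r went uncounted in every library. Its level was 10.6, 13.4 and 6.92 CPM in WT and 11.1 to 14.9 CPM, with a median of 12.9, in WT + NACET. In Akita it was 8.98, 8.16, 9.04 and 5.47 CPM, and in Akita + NACET 8.20, 10.3, 8.61, 8.82 and 4.83 CPM. All 5 Akita + NACET libraries lay below all 6 WT + NACET libraries, with a log2 fold change of -0.69 ± 0.18 (edgeR adjusted p = 0.0178). The 3 WT libraries were spread widely, and the changes against WT were 0.36 ± 0.21 with NACET (adjusted p = 0.349) and -0.37 ± 0.23 in Akita (adjusted p = 0.304).

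Itgam (chromosome 7, 135206154 to 135271674, plus strand in mm9), which encodes the CD11b chain of complement receptor 3, was the least abundant of the genes, with 3 to 20 reads per library. It ranged from 0.181 to 0.959 CPM in WT, 0.737 to 1.44 CPM in WT + NACET, 0.414 to 0.912 CPM in Akita and 0.345 to 0.980 CPM in Akita + NACET. Its difference between WT + NACET and WT was 0.90 ± 0.43 on the log2 scale (edgeR adjusted p = 0.250), with a 95% interval of 0.01 to 1.78.

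Trem2 and Tyrobp encode a receptor and the adaptor that carries its signal. Trem2 (mm9, chromosome 17, 48485726 to 48493472, plus strand) had 2.58, 2.16 and 1.75 CPM in WT and 2.50 to 3.46 CPM, with a median of 3.08, in WT + NACET. The level in Akita was 2.24, 1.80, 2.76 and 1.16 CPM, and in Akita + NACET 0.965, 2.24, 1.72, 1.62 and 1.57 CPM. Every Akita + NACET library was below every WT + NACET library, and the log2 fold change of -0.89 ± 0.22 (95% interval -1.35 to -0.43, edgeR adjusted p = 0.0145) was the largest decrease of the 9 genes. Trem2 rested on 14 to 61 reads per library.

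Tyrobp (mm9, chromosome 7, 31198807 to 31202596, plus strand) followed a similar course. Its level was 3.59, 3.68 and 3.19 CPM in WT and 3.46 to 5.59 CPM, with a median of 4.19, in WT + NACET. It was 3.79, 3.42, 4.83 and 1.49 CPM in Akita and 1.93, 2.59, 3.64, 2.49 and 1.57 CPM in Akita + NACET. Only replicate 3 of Akita + NACET reached into the range of WT + NACET, and the log2 fold change between these groups was -0.86 ± 0.24 (edgeR adjusted p = 0.0259). The WT libraries lay close together, and neither WT + NACET vs WT (0.35 ± 0.28, adjusted p = 0.503) nor Akita vs WT (-0.03 ± 0.30, adjusted p = 0.962) passed the threshold. The effect of NACET in Akita minus that in WT was -0.78 ± 0.36 for Trem2 (edgeR adjusted p = 0.122) and -0.83 ± 0.39 for Tyrobp (adjusted p = 0.131).

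Aif1 and Cd68 are the usual targets of microglia staining. Aif1 (mm9, chromosome 17, 35307936 to 35313013, minus strand) encodes the actin-binding protein IBA1, and it spread from 0.249 to 2.17 CPM in Akita and from 0.497 to 2.17 CPM in Akita + NACET, against 1.26 to 2.32 CPM in WT and 1.21 to 2.50 CPM in WT + NACET. Cd68 (mm9, chromosome 11, 69477715 to 69479655, minus strand) encodes a glycoprotein of lysosomes and endosomes that is abundant in phagocytes. It ranged from 1.20 to 4.08 CPM in WT, 1.72 to 3.98 CPM in WT + NACET, 0.912 to 2.39 CPM in Akita and 1.03 to 1.89 CPM in Akita + NACET. The groups overlapped for both genes in every comparison, and in Akita + NACET vs WT + NACET the log2 fold changes were -0.59 ± 0.38 for Aif1 (edgeR adjusted p = 0.305) and -0.61 ± 0.31 for Cd68 (adjusted p = 0.184). With 3 to 34 reads of Aif1 and 11 to 67 reads of Cd68 per library, a change of the size seen for Ctss was within their 95% intervals.

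Ctss, the gene of the lysosomal protease cathepsin S, which cleaves the invariant chain during antigen presentation, was the most abundant of the 9 genes and differed the most clearly. It lies on chromosome 3 (mm9, 95330708 to 95360325, plus strand). The WT libraries had 16.1, 18.7 and 15.4 CPM, and the WT + NACET libraries 23.4 to 34.9 CPM with a median of 29.2. The Akita libraries had 23.5, 17.9, 20.8 and 11.3 CPM, and the Akita + NACET libraries 14.5, 17.4, 19.7, 18.1 and 14.6 CPM. WT + NACET stood above WT and above Akita + NACET with no overlap, while its lowest library (23.4 CPM) was near the highest Akita library (23.5 CPM). Ctss was 1.74-fold higher in WT + NACET than in WT (95% interval 1.33 to 2.26, log2 fold change 0.80 ± 0.18, edgeR adjusted p = 0.0317) and lower in Akita + NACET than in WT + NACET by -0.78 ± 0.15 on the log2 scale (adjusted p = 0.00394). In Akita the NACET groups differed by -0.13 ± 0.17 (adjusted p = 0.653), and the effect of NACET in Akita minus that in WT was -0.92 ± 0.25 (adjusted p = 0.0156). Between Akita + NACET and WT the difference was 0.01 ± 0.19, with a 95% interval of -0.37 to 0.40.

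**Figure D1:**
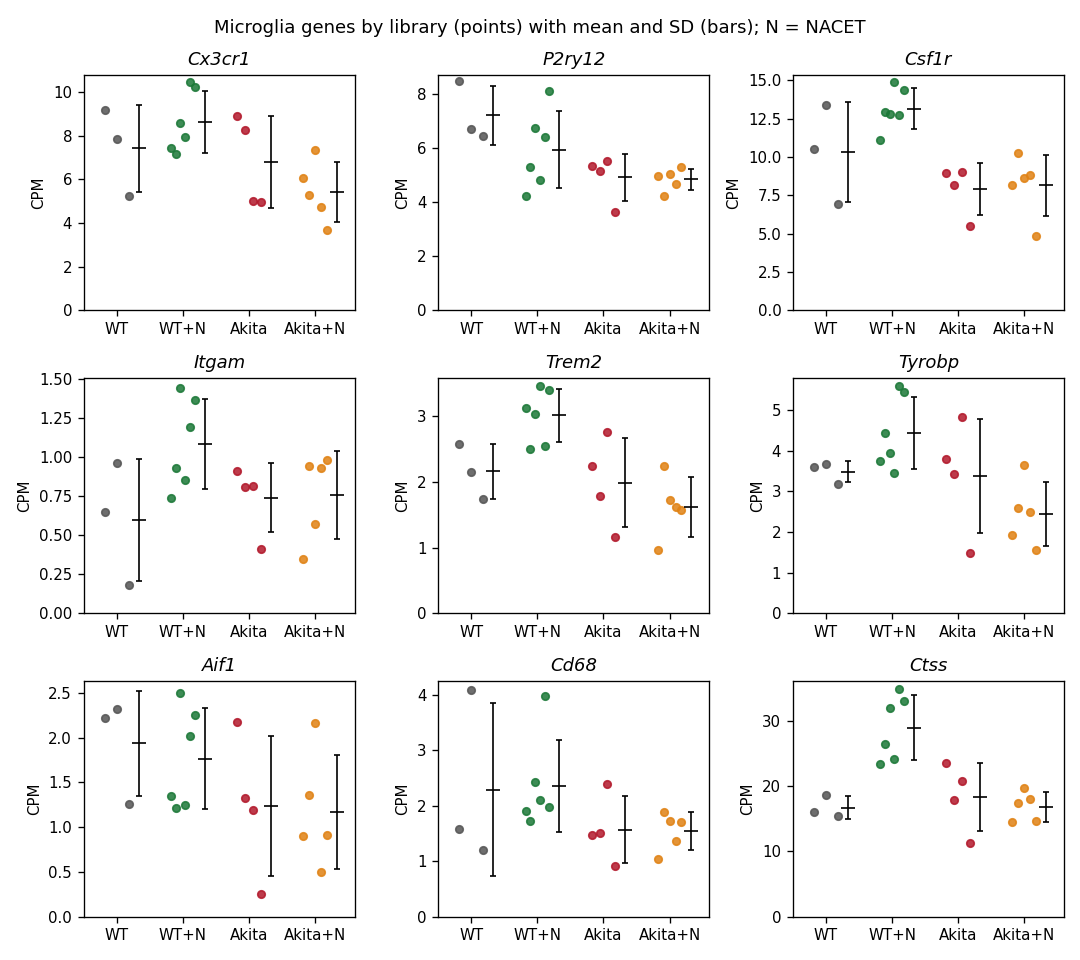
Level of each of the 9 microglia genes in CPM (vertical axes, from 0) in every library, by group (N stands for NACET); points are libraries and the bars beside them the group mean and SD (n = 3, 6, 4 and 5). Ctss in WT + NACET lay at 23.4 CPM or above, over every WT and Akita + NACET library, and Akita replicate 4 was the lowest Akita library for all 9 genes.

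Seen by comparison, most calls among the microglia genes fell between the NACET-treated genotypes. In Akita + NACET vs WT + NACET all 9 genes had a negative log2 fold change, and 5 of them passed the test as lower (Ctss, Trem2, Csf1r, Tyrobp and Cx3cr1), where 7.26% of all tested genes were called lower. For 3 of the 9 (Ctss, Trem2 and Csf1r) every Akita + NACET library lay below every WT + NACET library, which held for 5.01% of all tested genes. The median log2 fold change of the 9 genes was -0.67, beside a median of 0.00 over all tested genes. In bulk retina, fewer microglia and less RNA of these genes per cell cannot be told apart.

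In WT + NACET vs WT, 1 of the 9 genes, Ctss, was called higher, with 0.859% of all tested genes. It was also the 1 gene whose libraries were all higher, against 6.29% of all tested genes. The median of the 9 genes was 0.35, with 7 of them positive. In the interaction of genotype and NACET, Ctss was again the 1 gene called, as negative, with 10.2% of all tested genes, and the median was -0.55. Since these comparisons share the WT + NACET libraries, they are not separate evidence.

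The comparisons that left out WT + NACET called none of the 9 genes. In Akita vs WT edgeR called 0 of 9, where 7.64% of all tested genes were called in either direction, and P2ry12 was the 1 gene with an unadjusted p below 0.05. In Akita + NACET vs Akita the count was also 0 of 9, with 9.65% of all genes called and 0 microglia genes at an unadjusted p below 0.05. In Akita + NACET vs WT it was 0 of 9 with 0.00618% of all genes called, and P2ry12 alone had an unadjusted p below 0.05. DESeq2 called 0 of 9 in each of these 3 comparisons. The calls among all genes were unstable here. In Akita vs WT they fell from 1237 to 0 with the outside-exon share in the fit, to 0 without WT replicate 1 or 2 and to 234 (1.44%) without Akita replicate 4. In Akita + NACET vs Akita they fell from 1562 to 0 with the share, to 1 (0.00617%) without Akita replicate 4, to 101 (0.626%) without Akita + NACET replicate 5, to 425 (2.64%) without Akita + NACET replicate 2, and to 808 to 992 without Akita + NACET replicate 4 or Akita replicate 1 or 3. The median log2 fold changes of the 9 genes were -0.12, -0.10 and -0.45 in that order. A p above the threshold does not show equal levels: the 95% interval for Cx3cr1 in Akita vs WT ran from -0.64 to 0.40, and that for Ctss from -0.26 to 0.55.

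**Figure D2:**
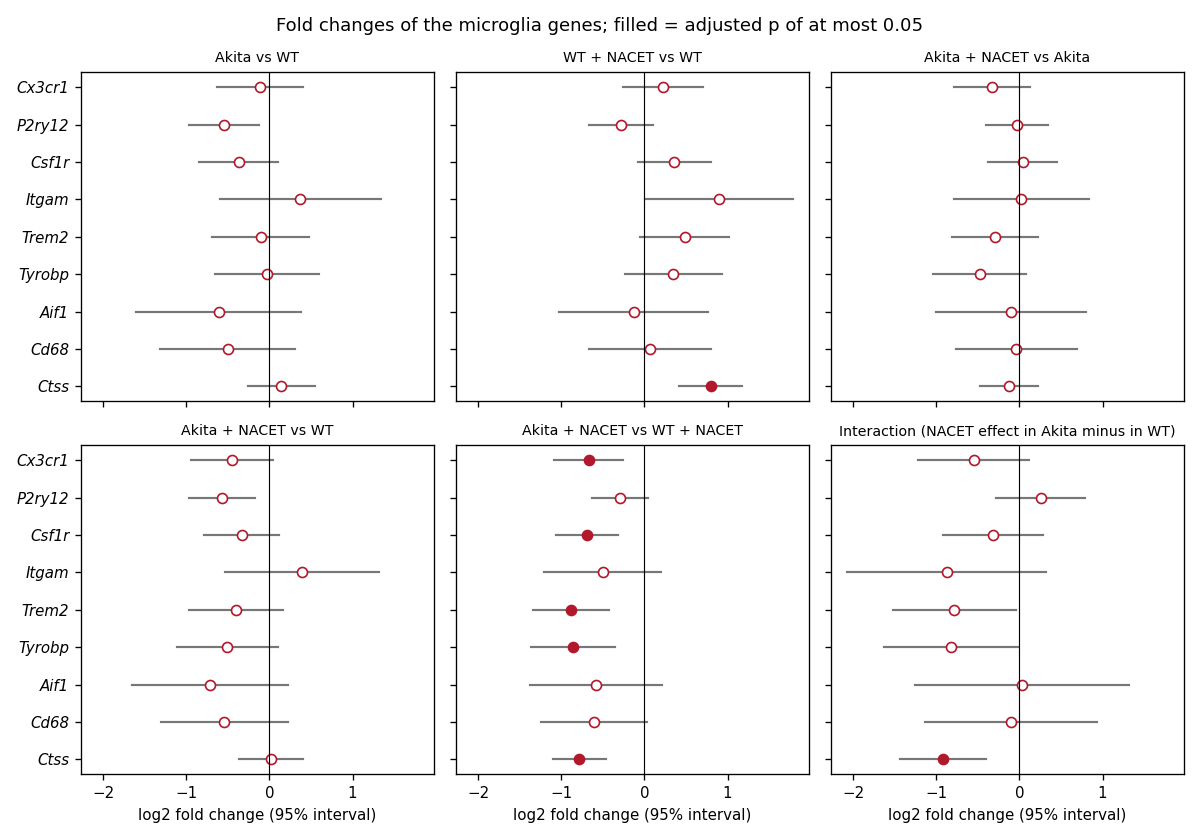
Log2 fold change of each microglia gene (horizontal axis) with its 95% interval (line) in 6 comparisons from 1 edgeR fit; filled points have an adjusted p of at most 0.05. Filled points appear in WT + NACET vs WT (Ctss, 0.80), in Akita + NACET vs WT + NACET (5 genes, -0.67 to -0.89) and in the interaction (Ctss, -0.92).

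The 5 calls in Akita + NACET vs WT + NACET were lost once the outside-exon share was a term of the fit, which left 0 of 9 genes called by edgeR and lowered the calls among all tested genes from 2148 to 194. The log2 fold changes kept their sign with this term, at -0.64 for Ctss, -0.88 for Trem2, -0.63 for Csf1r, -0.63 for Tyrobp and -0.55 for Cx3cr1, with adjusted p-values from 0.105 to 0.298. When only the libraries with shares in the overlap of the groups (14.3% to 16.5%, 2 WT + NACET and 3 Akita + NACET libraries) were compared, 0 of 9 genes and 40 of all genes were called. The differences were then -0.51 for Ctss, -0.97 for Trem2, -0.49 for Csf1r, -0.60 for Tyrobp and -0.27 for Cx3cr1. The Ctss calls in WT + NACET vs WT and in the interaction were also lost with this term, at 0.65 (adjusted p = 0.266) and -0.60 (adjusted p = 0.641). The part of the share in these results was not tested further.

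**Figure D3:**
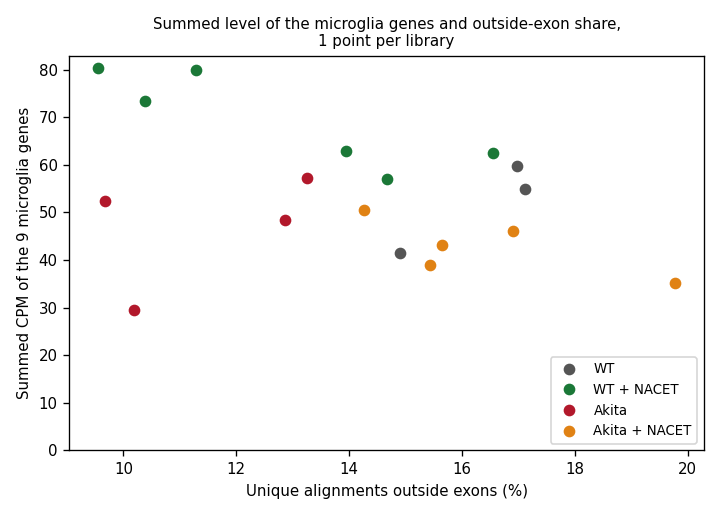
Summed CPM of the 9 microglia genes (vertical axis, from 0) against the outside-exon share in percent (horizontal axis), 1 point per library, coloured by group. The 3 WT + NACET libraries with the lowest shares had sums of 73.5 to 80.3 CPM, the other 3 had 57.0 to 62.9 CPM, and all 5 Akita + NACET libraries lay at 50.5 CPM or below.

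The summed level of the 9 genes ranged from 41.5 to 59.9 CPM in WT, 57.0 to 80.3 CPM in WT + NACET, 29.6 to 57.3 CPM in Akita and 35.1 to 50.5 CPM in Akita + NACET. The WT + NACET and Akita + NACET ranges did not overlap. Akita replicate 4 had the lowest sum of all libraries, and it was also the library with the highest summed level of 12 rod photoreceptor genes. Single libraries therefore weighed on the calls. Without Akita + NACET replicate 5, the library with the highest outside-exon share, 2 of 9 genes stayed called in Akita + NACET vs WT + NACET (Trem2 and Ctss). Without Akita + NACET replicate 4, WT + NACET replicate 5 or WT + NACET replicate 6 the count was 3 (Csf1r, Trem2 and Ctss in each). The Ctss call in WT + NACET vs WT was lost without any 1 of the 3 WT libraries and without WT + NACET replicate 3, 5 or 6, while its log2 fold change stayed between 0.74 and 0.88.

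Per kilobase of exon, the mean level over the 18 libraries fell from 15.6 ± 5.01 CPM per kb (SD) for Ctss over 6.19 ± 2.08 for Tyrobp, 2.36 ± 0.55 for P2ry12, 1.94 ± 0.57 for Csf1r and 1.91 ± 0.54 for Cx3cr1. Below these came Cd68 at 1.54 ± 0.69, Aif1 at 0.986 ± 0.436, Trem2 at 0.457 ± 0.149 and Itgam at 0.131 ± 0.051 CPM per kb. Ctss was above Tyrobp, Tyrobp above P2ry12 and Trem2 above Itgam in 18 of 18 libraries. Csf1r was above Cx3cr1 in 9 of 18 libraries, so that these neighbours did not differ beyond their spread. P2ry12 was above Csf1r in 14 of 18 libraries, and in WT + NACET their means were 2.50 and 2.51 CPM per kb. Csf1r is undercounted because of its overlap with Hmgxb3, so its place in this order is uncertain. Exon length was the union over all annotated transcripts (4946 bases for Trem2), so a gene read from shorter transcripts is placed too low. The transcripts in use were not tested. The receptor gene Trem2 was below that of its adaptor Tyrobp, which also serves other receptors.

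The 9 genes moved together from library to library. Over the 36 pairs, Pearson's r of log2 CPM had a median of 0.63 (0.24 to 0.84), and after removal of the group means 0.54 (0.17 to 0.88). The median over all pairs of tested genes was 0.00 both ways, and the libraries share depth and composition between genes, so these values are descriptive. Tyrobp and Ctss had the highest r (0.84), and P2ry12 and Itgam the lowest (0.24). Outside the list, genes most like the mean z-score of the 9 genes over the 18 libraries were C1qc (r = 0.94), C1qb (0.93), Fcer1g (0.91), Carkd (0.91), Dbi (0.91), Rcbtb2 (0.90), Actb (0.89), Ly86 (0.89) and Laptm5 (0.88). C1qb and C1qc encode chains of the complement starter C1q, which microglia produce in nervous tissue, and Fcer1g encodes an adaptor related to TYROBP.

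The balance of Ctss and P2ry12 differed between the groups, although the levels of both correlated over the libraries (r = 0.42, and 0.67 after removal of the group means). The number of Ctss reads per P2ry12 read, a ratio within each library that was looked at after the values were seen, was 1.90, 2.79 and 2.38 in WT and 4.08 to 5.52, with a median of 5.0, in WT + NACET. It was 4.41, 3.47, 3.76 and 3.09 in Akita and 2.92, 4.10, 3.91, 3.88 and 2.77 in Akita + NACET. All WT + NACET and all Akita libraries were above the 3 WT libraries, and the lowest Akita + NACET library (2.77) fell just under the highest WT library (2.79). No test was applied to a ratio chosen in this way.

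**Figure D4:**
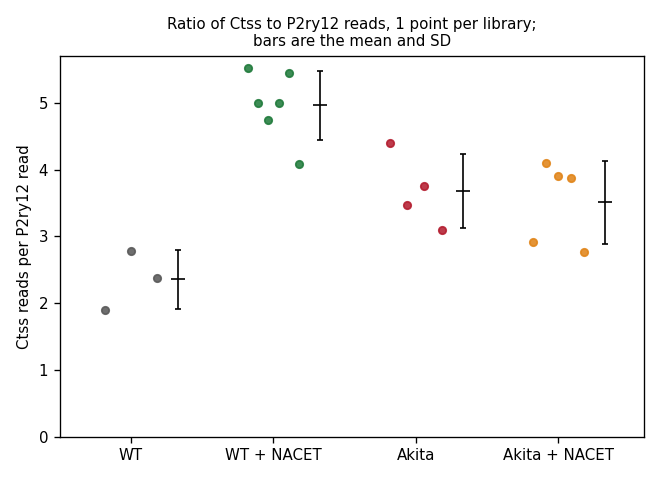
Reads of Ctss per read of P2ry12 (vertical axis, from 0) in each library by group, with the group mean and SD as bars. The ratio was 2.36 ± 0.44 in WT (n = 3), 4.97 ± 0.52 in WT + NACET (n = 6), 3.68 ± 0.56 in Akita (n = 4) and 3.51 ± 0.62 in Akita + NACET (n = 5).

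Among the ligands of these receptors, the fractalkine gene Cx3cl1 was the 1 gene of 6 tested that was called in Akita vs WT. It stood at 101 ± 19.5 CPM (SD) in WT, 79.4 ± 13.3 CPM in WT + NACET, 60.2 ± 13.8 CPM in Akita and 90.3 ± 4.67 CPM in Akita + NACET. All 4 Akita libraries (40.3 to 69.8 CPM) lay below the 3 WT libraries (82.9 to 122 CPM), as for 12% of all tested genes. The 5 Akita + NACET libraries had 86.6 to 97.7 CPM. Cx3cl1 fell in Akita vs WT (-0.74 ± 0.17, edgeR adjusted p = 0.0187), rose in Akita + NACET vs Akita (0.58 ± 0.15, adjusted p = 0.0260), and had an interaction of 0.93 ± 0.21 (adjusted p = 0.00803), and with the outside-exon share in the fit these became -0.65, 0.50 and 0.77 (adjusted p = 0.295, 0.628 and 0.515). The receptor gene Cx3cr1 passed the test in none of these 3. Over all tested genes 7.64%, 9.65% and 20.3% were called in them in either direction. Without WT replicate 1 or 2, 0 of all tested genes were called in Akita vs WT. Without Akita replicate 4, 1 was called in Akita + NACET vs Akita. Csf1 and Il34, the ligands of CSF1R, passed in no comparison, with 5.32 ± 1.68 and 7.14 ± 0.92 CPM in WT, and neither did Apoe, whose protein TREM2 can bind. C3, whose fragments bind the integrin with the Itgam chain, fell in Akita + NACET vs WT + NACET by -1.65 ± 0.41 (adjusted p = 0.0145), from 3.33 ± 1.44 to 1.05 ± 0.39 CPM, as did Icam1 (-1.41 ± 0.44, adjusted p = 0.0404). These were 2 of the 6 tested ligand genes, where 7.26% of all tested genes were called lower. With the outside-exon share in the fit 0 of the 6 tested ligand genes were called by edgeR in this comparison, and C3 had -1.74 (adjusted p = 0.0917).

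Of 12 genes listed for signalling by TREM2, TYROBP and related adaptors, 9 were tested, and 2 were lower in Akita + NACET than in WT + NACET, where 7.26% of all tested genes were. These were Fcer1g, the adaptor related to TYROBP (-1.12 ± 0.27, edgeR adjusted p = 0.0111), and Vav1, an exchange factor of haematopoietic cells (-1.38 ± 0.43, adjusted p = 0.0386). Vav1 rested on 1 to 22 reads per library. With the outside-exon share in the fit 0 of the 9 were called by edgeR (Fcer1g -0.98, adjusted p = 0.152), and DESeq2 without it called 1 of the 9. Of 9 transcription factors listed for microglia, 8 were tested and 0 were called by edgeR in this comparison, with 2 at an unadjusted p below 0.05 and 1 called by DESeq2. The PU.1 gene, listed as Sfpi1, had 1 to 33 reads per library and levels of 0.508 ± 0.032 CPM in WT, 1.01 ± 0.51 CPM in WT + NACET and 0.480 ± 0.253 CPM in Akita + NACET (adjusted p = 0.0982 between the NACET groups).

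Wider lists of microglia genes were read in the same comparison, Akita + NACET vs WT + NACET, in which 7.26% of all tested genes were called lower. Of 20 other genes of homeostatic microglia, 5 were lower and 0 higher, with a median of -0.41, led by the purine receptor P2ry13 (-1.20 ± 0.19, edgeR adjusted p = 0.000931), the protease inhibitor Cst3 (-0.52 ± 0.10, adjusted p = 0.00416) and the Fc receptor-like gene Fcrls (-1.94 ± 0.50, adjusted p = 0.0159). P2ry13 fell from 2.64 ± 0.39 to 1.14 ± 0.17 CPM, and it was also lower in Akita + NACET vs Akita (-0.73 ± 0.22, adjusted p = 0.0403), a call lost with the outside-exon share in the fit (-0.83, adjusted p = 0.628). Between the NACET groups P2ry13 was the 1 gene of the 20 still called with the share (-1.28, adjusted p = 0.00768). The microglia-specific Tmem119 had 3.09 ± 0.35 CPM in WT and passed in no comparison, and neither did Sall1. Of 21 tested genes of disease-associated microglia, 5 were lower and 0 higher, with a median of -0.36, led by the lysosomal proteases Ctsd, Ctsz and Ctsl and by B2m (-0.36 to -0.89). Ctsd also rose with Ctss in WT + NACET vs WT (0.49 ± 0.12, adjusted p = 0.0434), and this call was lost with the share in the fit (0.37, adjusted p = 0.308). Cst3, Ctsd and several others of these genes are expressed by other retinal cells too.

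Of 32 tested genes of myeloid cells and leukocytes in general, 9 were lower and 0 higher in that comparison (7.26% of all tested genes were lower), with a median of -0.56, led by C1qa (-0.99 ± 0.22, edgeR adjusted p = 0.00775), Ly86, C1qb and Lyn. C1qa fell from 6.39 ± 0.997 to 3.21 ± 1.02 CPM, and the leukocyte gene Ptprc passed in no comparison. Of 22 inflammatory genes 8 were tested and 2 were lower, Socs3 (-0.98 ± 0.18, adjusted p = 0.00290) and Cd86 (-1.52 ± 0.38, adjusted p = 0.0139). With the outside-exon share in the fit, 0 of the 32 myeloid genes and 0 of the 21 disease-associated genes were called by edgeR, whereas Socs3, which restrains cytokine signalling, still was (-1.07, adjusted p = 0.0167). Il1b had 0 to 5 reads per library and was not tested. In Akita vs WT 7.64% of all tested genes were called in either direction. The calls in these lists were Lpl and Igf1 as lower (-0.80 ± 0.21 and -0.60 ± 0.18, edgeR adjusted p = 0.0270 and 0.0451) and Lgmn, Mef2c and Mef2a as higher (0.69 ± 0.19, 0.47 ± 0.13 and 0.32 ± 0.10, adjusted p = 0.0334, 0.0365 and 0.0464). None of these 5 calls held with the outside-exon share in the fit or without WT replicate 1 or 2, where 0 of all tested genes were called. In Akita + NACET vs WT none of them was called. Mef2c and Mef2a averaged 282 and 117 CPM in WT, beside 7.42 CPM for Cx3cr1, and the cells they came from were not tested.

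**Figure D5:**
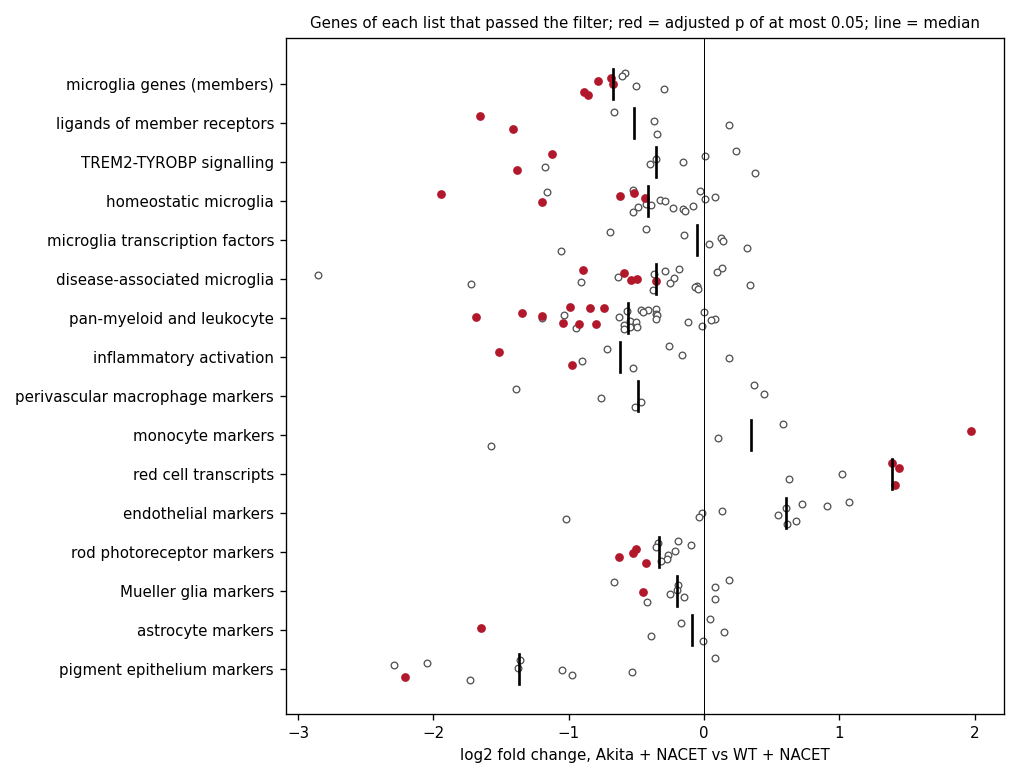
Log2 fold change in Akita + NACET vs WT + NACET (horizontal axis) of the genes of each list that passed the filter, 1 point per gene, red where the edgeR adjusted p was at most 0.05, with the list median as a line. The medians were -0.67 for the 9 microglia genes, -0.41 for other homeostatic genes, -0.56 for myeloid genes in general, -0.49 for perivascular macrophage markers and 1.39 for red cell transcripts.

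Markers of other cells were read in the same libraries, since macrophages and blood can carry several of the 9 genes. Perivascular macrophage markers (10 genes, 6 tested) summed to 6.97 to 16.1 CPM in WT, 4.48 to 17.3 CPM in WT + NACET, 4.56 to 12.8 CPM in Akita and 6.82 to 11.3 CPM in Akita + NACET, and edgeR called 0 of 6 in Akita + NACET vs WT + NACET (1 at an unadjusted p below 0.05, 0 by DESeq2). The median log2 fold change of these 6 genes in that comparison was -0.49, with 4 of 6 negative. Mrc1, the usual marker of perivascular macrophages, had 0 to 24 reads per library. The 9 neutrophil markers summed to 0.736 CPM or less and the 13 lymphocyte markers to 1.90 CPM or less in every library, with Retnlg, Cd3e and Ms4a1 at 0 throughout, and the monocyte receptor Ccr2 had 0 to 4 reads. The monocyte list (9 genes, 4 tested) had 1 gene higher in Akita + NACET than in WT + NACET, Plac8 (1.97 ± 0.65, adjusted p = 0.0480), on 0 to 21 reads. Red cell transcripts (8 genes, 5 tested) went the other way from the microglia genes, with 3 higher and a median of 1.39. In Akita + NACET vs WT + NACET 13.3% of all tested genes were called in either direction. The red cell transcripts summed to 20.01 to 56.5 CPM in WT + NACET and 36.1 to 97.9 CPM in Akita + NACET. With the outside-exon share in the fit edgeR called 0 of the 4 monocyte genes and 0 of the 5 red cell genes, whose median was 0.94.

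Single genes of glia and photoreceptors were called too. Gfap, which astrocytes and stressed Mueller cells express, was 192 ± 48.7 CPM in WT + NACET, above 54.1 ± 23.0 in WT and 61.3 ± 24.5 in Akita + NACET, and its log2 fold change between the NACET groups was -1.65 ± 0.36 (edgeR adjusted p = 0.0104). It was the 1 astrocyte marker of 6 called, with a list median of -0.09, and 1 of 10 Mueller glia markers was called, with a median of -0.20. Of 12 rod genes 4 were lower in Akita + NACET than in WT + NACET, where 7.26% of all tested genes were, with a median of -0.33. With the outside-exon share in the fit Gfap (-1.41, adjusted p = 0.118) and the 4 rod genes lost their calls. Markers of the pigment epithelium, a layer outside the neural retina, summed to 662 to 1520 CPM in WT + NACET and 102 to 707 CPM in Akita + NACET, with a median of -1.37 and 1 of 10 called (Tyr, -2.21 ± 0.66, adjusted p = 0.0388). With the outside-exon share in the fit 0 of these 10 were called by edgeR, and their median was -0.87. The part of these other cells in the differences of the microglia genes was not tested.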

How the data were processed

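The 18 libraries of retinal poly(A) RNA from male mice (WT 3, WT + NACET 6, Akita 4, Akita + NACET 5) were grouped by the sample titles. Per the study's methods, libraries were made with a TruSeq RNA v2 kit and sequenced single-end, and per the submitters' processing notes the reads were aligned to mm9 with TopHat2 2.1.0 and Bowtie and counted with HTSeq 0.11.2, over exons and without strand. The authors deposited raw read counts per gene name, not normalized, 1 table per library. Reads shared by overlapping genes or by several loci were not counted.

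Here 206 ribosomal RNA genes (0.977% of counts on average) and an entry with no name (0.00544%) were removed. Counts were tested in edgeR 4.0.16 by its quasi-likelihood F test (R 4.3.3, TMM, default filter with minimum count 10 and minimum total 15, robust dispersion), with all 4 groups in 1 fit, 5 comparisons of groups and the interaction, and Benjamini-Hochberg adjustment over 16183 genes. A gene was called where its adjusted p did not exceed 0.05. The biological coefficient of variation was 0.186. SE were derived from the F statistic, and log2 CPM used a prior count of 2. The study used DESeq2, run here as an alternative (1.42.0). The script was tested on simulated data. No 2 libraries of a group agreed within sampling noise. Gene coordinates came from the mm9 annotation, and promoter sequences from RefSeq. The 9 genes and the gene lists were chosen with earlier results of these data known. Named beside them are at most 4 called genes per list and comparison by smallest p, a short set of markers named whether called or not, and the 10 genes (mean of at least 1 CPM) most correlated with the mean z-score. Some genes that met these rules are not reported here. Alternatives were DESeq2 (all or 2 groups), its size factors in edgeR, edgeR fits of 2 groups, other filters (none, or 50 reads on average), ribosomal RNA kept, a replicate block, the outside-exon share as a covariate, and each library left out.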

Additional observations from a re-analysis of the deposited data

Results flagged for a closer look

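Among 27 sets of 4 or more libraries (9 genes in 3 groups; the 3 WT libraries were not examined), 1 had a library apart from the rest. Cd68 was 3.98 CPM in WT + NACET replicate 5, and the gap to the next library took 0.685 of the range of the group. Chance sets a library apart in about 1 in 20 such sets.

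The effect of NACET on Ctss differed between the genotypes, with an interaction of -0.92 on the log2 scale (edgeR adjusted p = 0.0156, range 0.00336 to 0.641 over the alternatives). Ctss was higher in WT + NACET than in WT, with no overlap, while the Akita and Akita + NACET libraries overlapped.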

How the results depend on the processing

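Over all comparisons, 144 of 161 counts of called microglia genes stayed within 1.5 times the reported count under the alternatives. These include the comparisons without WT + NACET, whose counts stayed at 0. Of 1425 values for single genes 1390 kept their side of the threshold, 34 lost significance and 1 gained it. Most values were of results not called, which had no significance to lose. In Akita + NACET vs WT + NACET the call held in 12 of 18 leave-one-out fits for Cx3cr1, 13 for Tyrobp, 17 for Csf1r and 18 each for Trem2 and Ctss. For Ctss in WT + NACET vs WT it held in 12 of 18. The direction reversed in 0 called values and changed in 60 values that were not called. The outside-exon share as a covariate left 0 of the 9 genes called in WT + NACET vs WT, 0 in Akita + NACET vs WT + NACET and 0 in the interaction. Restriction to overlapping shares, chosen after seeing the data, left 0 in Akita + NACET vs WT + NACET on fewer libraries. The replicate block gave 0 in WT + NACET vs WT and 2 in Akita + NACET vs WT + NACET (Csf1r and Ctss). Replicate numbers did not pair the libraries, since 4 of 22 same-numbered pairs had deviations correlated above 0.1 (range -0.33 to 0.34) and 2 of 18 libraries correlated best with their own number. Leaving out each library gave 0 to 1 genes in WT + NACET vs WT, 2 to 5 in Akita + NACET vs WT + NACET and 1 to 2 in the interaction, the 2 being Tyrobp and Ctss without Akita replicate 4. The cause of these losses was not tested. A filter at 50 reads on average removed Itgam, Trem2, Aif1 and Cd68 from testing, and edgeR or DESeq2 with 2 groups gives no interaction. Depth limits Itgam, Aif1, Cd68 and Trem2 most, with at most 67 reads per library.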

Other observations

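In the interaction of genotype and NACET, edgeR called 10.2% of all tested genes as negative. The counts in the wider lists lay on both sides of this share. Of the 32 myeloid genes and the 8 transcription factors 0 were called. Of the 9 signalling genes of TREM2 and TYROBP 0 were negative and 1 was positive. Of the 8 tested inflammatory genes 1 was negative. Of 20 other genes of homeostatic microglia, 3 were negative and 0 positive, namely P2ry13 (-1.30 ± 0.31, adjusted p = 0.00877), Cst3 (-0.62 ± 0.17, adjusted p = 0.0146) and Lgmn, a lysosomal endopeptidase (-0.68 ± 0.24, adjusted p = 0.0481). Of 21 tested genes of disease-associated microglia, 4 were negative, all of them lysosomal cathepsins (Ctsd -0.59, Ctsz -0.41, Ctsb -0.42 and Ctsl -0.67), and 1 was positive, the growth factor gene Igf1 (0.94 ± 0.23, adjusted p = 0.0100). Igf1 stood at 37.8 ± 6.75 CPM (SD) in WT, 29.8 ± 3.15 in WT + NACET, 24.8 ± 6.21 in Akita and 37.7 ± 6.76 in Akita + NACET. These genes are expressed by several retinal cell types. With the outside-exon share in the fit, 0 of the 20 and 0 of the 21 genes kept an interaction, with 17 called among all tested genes.

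Mertk, a receptor for the uptake of dying cells and outer segments, rose in Akita + NACET vs Akita (0.92 ± 0.24, edgeR adjusted p = 0.0280), from 1.81 ± 0.24 to 3.46 ± 0.74 CPM (SD). It was the 1 gene called higher among the 20 other homeostatic genes, where 2 were called lower. In that list 17 of 20 changes were negative, with a median of -0.22, and 9.65% of all tested genes were called in either direction. The pigment epithelium expresses Mertk as well, and its marker Rpe65 was 11.2 ± 6.79 CPM in Akita and 44.0 ± 29.0 CPM in Akita + NACET. Of the 10 pigment epithelium markers edgeR called 0 in this comparison and DESeq2 called 4. Endothelial markers (11 tested) had 2 genes higher in the same comparison, Cldn5 (2.14 ± 0.54, adjusted p = 0.0239) and Slco1a4 (1.65 ± 0.48, adjusted p = 0.0410). Of the 9 microglia genes 0 were called by edgeR, 0 had an unadjusted p below 0.05, and DESeq2 called 0. Beside the 9.65% of all tested genes called, these small counts do not set the microglia genes apart from the endothelial ones. With the outside-exon share in the fit 0 of all tested genes were called in this comparison, and without Akita replicate 4 the count was 1 and included neither Mertk nor Cldn5 or Slco1a4.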
